A study of Mus musculus with 12 samples.

Results

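The mitochondrial arm of apoptosis is set by the balance among proteins of the Bcl2 family, and the transcripts of 10 family genes were examined here. They were chosen by symbol from the 55450 genes of the count table: the pro-survival genes Bcl2, Bcl2l1 and Mcl1, the effectors Bax and Bak1, and the BH3-only genes Bcl2l11, Bid, Bbc3, Pmaip1 and Bad. Each symbol matched 1 gene, and all 10 were among the 14346 genes with counts high enough to test. Pro-survival proteins hold the effectors in check at the outer mitochondrial membrane. BH3-only proteins bind the pro-survival proteins or the effectors, and once freed or activated the effectors open pores that release cytochrome c and start the caspase cascade. Mcl1 and Bcl2l1 are best known in blood formation for keeping stem cells and erythroid precursors alive, and Bcl2 for the survival of lymphoid cells.

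RNA came from donor Lin- ckit+ cells, that is, bone marrow cells without mature lineage markers and with the stem cell factor receptor Kit. They were sorted from recipients of competitive bone marrow transplants. The donor genotypes were WT, Tet2 KO, Id1 KO and Tet2 KO + Id1KO, called here WT, Tet2KO, Id1KO and dKO, with 3 libraries each. Tet2 encodes an enzyme that oxidizes methylated cytosine in DNA, and Id1 encodes an inhibitor of basic helix-loop-helix transcription factors. How the alleles were made, the age of the mice, the time after transplant, and whether the libraries of a genotype came from separate mice were not given in the sources used here. The design asks what loss of each gene, alone and together, does to the transcriptome of the transplanted progenitors.

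Library totals ran from 15706407 to 19959183 estimated counts, and Kit was present at 315 to 365 CPM on average in every genotype. CPM are counts scaled to library size after adjustment by trimmed mean of M values. The targeted genes were not reduced: neither Tet2 nor Id1 was lower under its own KO label. Tet2 averaged 99.3 CPM in WT, 130 with Tet2KO, 92.0 with Id1KO and 118 with dKO, and Id1 averaged 1.47, 3.86, 3.96 and 3.93 CPM. Genotype names below are therefore the labels of the libraries, and each direction rests on those labels. In their titles, the libraries of 1 genotype share 1 sample number and differ by a suffix. They may be repeats of 1 cell sample, so that p-values measure only the spread between these libraries. When the 3 libraries of each genotype were summed to 1, the fit took the effects of both labels as additive. It had 1 effect per label behind all 5 pairwise comparisons, left 1 residual degree of freedom and gave no interaction. The Tet2 label then gave a log2 fold change of 0.24 for Bcl2 and -0.49 for Pmaip1. The calls below rest on the separate libraries alone. In bulk samples, fewer cells of a type and less RNA per cell cannot be told apart.

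The promoter windows of the pro-survival members are shown because all 3 of these genes were lower in dKO than in Tet2KO. The calls of Bcl2l1 and Mcl1 were lost in some alternative fits, given below. Another reason is that Id1 acts on proteins that bind the E-box. Each window holds 250 bases before and 50 bases after a transcription start, 5′ to 3′ on the gene's strand, from RefSeq on GRCm38.p6. Capitals mark the E-box, CANNTG, a motif that reads the same on both strands. The windows are chr1:106714241-106714540 (minus strand) for Bcl2, chr2:152831679-152831978 (minus strand) for Bcl2l1, the farthest upstream of its 3 windows, and chr3:95658471-95658770 (plus strand) for Mcl1.
Bcl2: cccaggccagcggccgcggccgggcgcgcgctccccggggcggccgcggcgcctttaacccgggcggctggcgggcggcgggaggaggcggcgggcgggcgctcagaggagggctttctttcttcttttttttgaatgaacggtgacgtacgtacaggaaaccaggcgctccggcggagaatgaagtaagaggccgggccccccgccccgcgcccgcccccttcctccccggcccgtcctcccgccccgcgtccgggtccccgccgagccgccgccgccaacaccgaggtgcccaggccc
Bcl2l1: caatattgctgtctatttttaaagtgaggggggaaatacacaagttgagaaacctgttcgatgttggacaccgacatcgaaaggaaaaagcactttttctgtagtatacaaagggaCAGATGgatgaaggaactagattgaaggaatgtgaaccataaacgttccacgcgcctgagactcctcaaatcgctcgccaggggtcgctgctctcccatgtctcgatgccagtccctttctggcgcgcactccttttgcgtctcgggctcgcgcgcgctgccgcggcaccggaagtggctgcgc
Mcl1: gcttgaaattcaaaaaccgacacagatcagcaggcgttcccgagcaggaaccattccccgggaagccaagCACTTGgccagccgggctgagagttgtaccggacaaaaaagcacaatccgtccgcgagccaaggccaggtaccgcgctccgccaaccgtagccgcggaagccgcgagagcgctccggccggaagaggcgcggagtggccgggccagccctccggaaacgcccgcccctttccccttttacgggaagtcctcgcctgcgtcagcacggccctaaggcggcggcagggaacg
The Bcl2 window held no E-box, the Bcl2l1 window held CAGATG at -134, and the Mcl1 window held CACTTG at -180, counted in bases from the start site. RefSeq windows were examined for 9 of the 10 members, 15 windows in all, and Pmaip1 was left out of this search. Of these, 10 windows, or 66.7%, held an E-box, against 72.3% of all 32851 windows of that length. The Bax window held CACGTG at -9 and at 35, whereas the windows of Bak1 and Bid held none. A match describes letters in a window and is not evidence of a bound site.

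Levels were compared between genes as CPM per kb of merged exon. In WT libraries Mcl1 led with a mean of 60.5 ± 0.97 (SD, n = 3), followed by Bak1 at 35.0 ± 0.11, Bax at 24.5 ± 0.38, Bid at 23.3 ± 0.74, Bcl2 at 14.3 ± 0.29 and Bad at 8.30 ± 0.076. The 4 least abundant were Pmaip1 at 3.30 ± 0.20, Bcl2l11 at 3.09 ± 0.11, Bcl2l1 at 2.81 ± 0.16 and Bbc3 at 1.94 ± 0.24. Mcl1 stood at the 94.8th percentile of the tested genes on this scale and Bbc3 at the 31.6th. Neighbours in this WT order were separated in every library except Pmaip1 and Bcl2l11, whose libraries overlapped. The same 6 genes held the top places in all 4 genotypes. Bax and Bid overlapped in Tet2KO and dKO, and Pmaip1 fell to the last place in Tet2KO, at 1.66 ± 0.044.

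**Figure D1:**
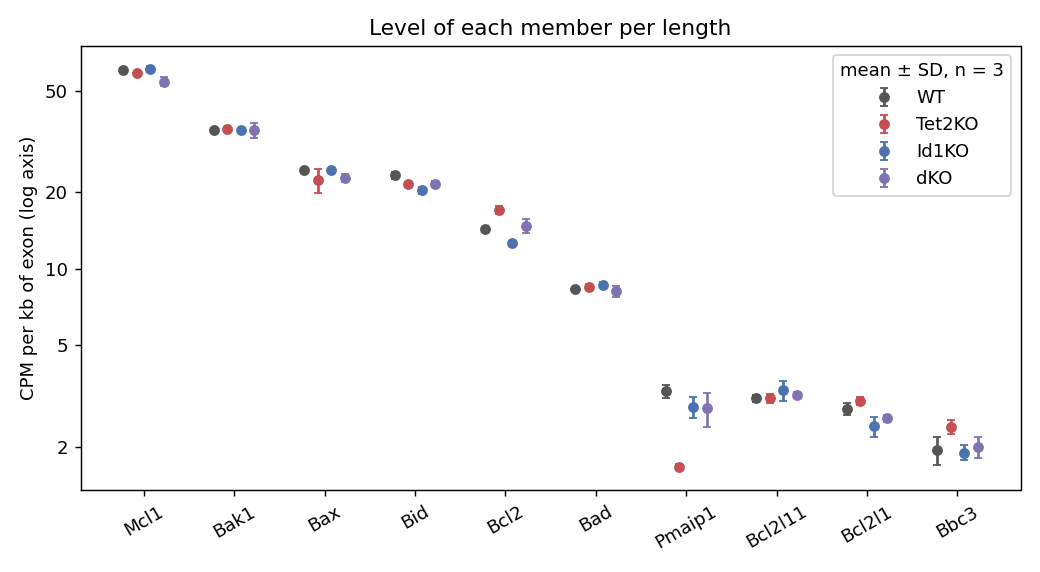
Mean CPM per kb of exon (log axis) for each member in the 4 genotypes, with bars for the SD over 3 libraries. Mcl1 lies highest in every genotype, and the Tet2KO point of Pmaip1, at 1.66, lies apart from its other 3 points.

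Between genotypes, the member that differed most was Pmaip1, and the members that differed least were Bak1, Bad and Bcl2l11. The genotype means of Pmaip1 spanned 0.99 on the log2 scale, those of Bcl2 0.43, and those of Bak1 only 0.02. In Tet2KO against WT, 3 of the 10 members passed the test (edgeR's quasi-likelihood test, adjusted p under 0.05), against 32.8% of all genes tested. Of these 1 was higher and 2 were lower, beside 16.6% of all genes higher and 16.2% lower. In Id1KO against WT 2 members passed, both lower, beside 15% of all genes (7.26% higher, 7.77% lower). In dKO against WT 2 passed, both lower, beside 19.2% (10.2% higher, 8.97% lower). Against Tet2KO, dKO had 1 member higher and 3 lower, beside 26.4% (13.1% higher, 13.4% lower). Against Id1KO it had 1 higher and 1 lower, beside 19.3% (10.6% higher, 8.7% lower). With 10 members, none of these counts sets the family apart from genes at large. The members' median absolute log2 fold change was 0.11 for Tet2KO against WT and 0.08 for dKO against Tet2KO, whereas that of all genes tested was 0.13 each time.

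**Figure D2:**
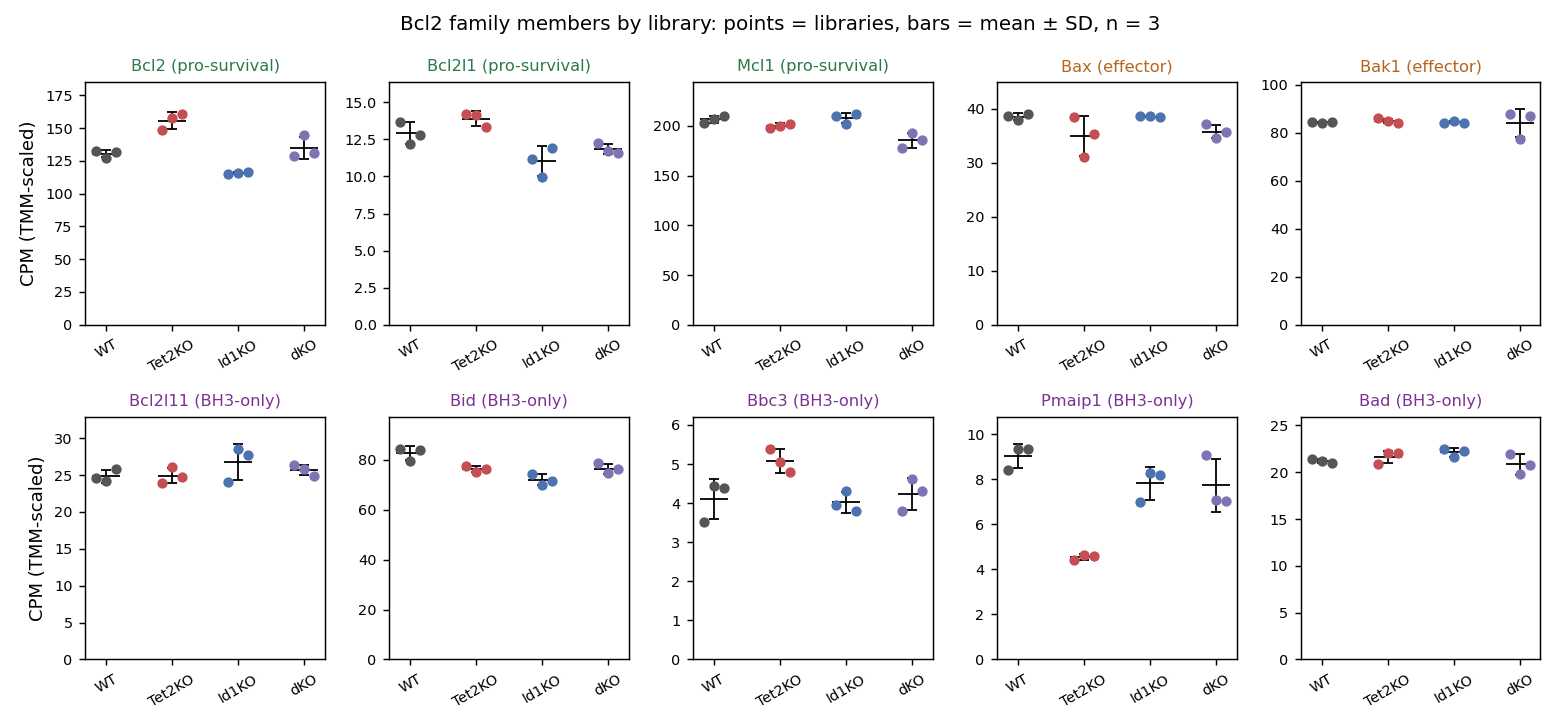
Scaled CPM of each member in each of the 12 libraries (points), with the mean and SD of each genotype (bars, n = 3). All 3 Tet2KO libraries of Bcl2 lie at 149 to 161 CPM, above every other library, and those of Pmaip1 lie at 4.41 to 4.65 CPM, below every other library.

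Bcl2, the founding pro-survival gene (ENSMUSG00000057329.7, chromosome 1, 106538178 to 106714274, minus strand), was higher with the Tet2KO label and lower with the Id1KO label. It was measured at 132, 128 and 132 CPM in the WT libraries, 149, 158 and 161 in Tet2KO, 115, 116 and 116 in Id1KO, and 129, 144 and 131 in dKO. Tet2KO was highest and Id1KO lowest with no overlap with any other genotype, while WT and dKO overlapped. Against WT, Tet2KO had a log2 fold change of 0.26 ± 0.037 (SE; edgeR adjusted p = 2.65e-05). Against Id1KO, dKO had 0.22 ± 0.039 (adjusted p = 0.000358), a comparison that shares no library with the first. It was -0.17 ± 0.038 in Id1KO against WT (adjusted p = 0.00399) and -0.21 ± 0.038 in dKO against Tet2KO (adjusted p = 0.000354), a pair that again shares no library. The difference between the effects of the Id1 label with and without the Tet2 label, the interaction, was -0.04, with a 95% interval of -0.15 to 0.08 and an adjusted p of 0.722. In dKO against WT the log2 fold change was 0.05 (adjusted p = 0.446). With the libraries summed per genotype, the effect of the Tet2 label was 0.24 and no longer passed the test (adjusted p = 0.0835).

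Markers of some progenitors moved beside Bcl2. Of 5 early lymphoid markers, 3 were higher in Tet2KO than in WT, beside 16.6% of all genes. In Id1KO 2 of the 5 were lower than in WT, beside 7.77% of all genes. The summed level of the 5 was 137 to 144 CPM in the Tet2KO libraries, 102 to 106 in WT, 94.9 to 100.4 in dKO and 82.7 to 88.3 in Id1KO. The 8 stem and multipotent markers summed to 808 to 826 CPM in Tet2KO, 745 to 750 in WT, 676 to 690 in dKO and 667 to 669 in Id1KO. The 7 monocyte and dendritic markers summed to 1537 to 1577 CPM in Tet2KO, 1411 to 1442 in dKO, 1231 to 1280 in WT and 1118 to 1125 in Id1KO. Of the 6 of them tested, 4 were higher in Tet2KO than in WT, and 4 were lower and 1 higher in Id1KO than in WT. Of all genes, 16.6% were higher in Tet2KO than in WT, and 7.77% were lower and 7.26% higher in Id1KO than in WT. All 3 sums were highest in Tet2KO and lowest in Id1KO, as Bcl2 was, and none of these markers was at 0. Unlike Bcl2, the early lymphoid and stem sums were lower in every dKO library than in every WT library. Stromal and endothelial markers had the same extremes, at 114 to 120 CPM in Tet2KO and 88.3 to 94.4 in Id1KO. The remaining marker lists did not. Neutrophil and B cell sums were also highest in Tet2KO, but those of Id1KO and dKO overlapped. The part of any of these cell types in the Bcl2 differences was not tested.

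Mcl1, which encodes a short-lived pro-survival protein (ENSMUSG00000038612.16, chromosome 3, 95658788 to 95663176, plus strand), was lowest in dKO. The WT libraries held 203, 207 and 210 CPM, the Tet2KO libraries 198, 200 and 202, the Id1KO libraries 210, 202 and 212, and the dKO libraries 178, 193 and 186. Every dKO library lay below every library of the other 3 genotypes. The log2 fold change of dKO was -0.15 ± 0.031 against WT (edgeR adjusted p = 0.00122), -0.16 ± 0.031 against Id1KO (adjusted p = 0.000684) and -0.11 ± 0.031 against Tet2KO (adjusted p = 0.0135), comparisons that share the dKO libraries. Against WT, the change was -0.05 in Tet2KO (adjusted p = 0.275) and 0.01 in Id1KO (adjusted p = 0.863). The interaction was -0.12 with an adjusted p of 0.074. It passed the test without Id1KO replicate 2 (adjusted p = 0.0463) or dKO replicate 2 (adjusted p = 0.0134), while the call of dKO against Tet2KO was lost without Tet2KO replicate 3 (adjusted p = 0.0535) or dKO replicate 1 (adjusted p = 0.0781).

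Bcl2l1 (ENSMUSG00000007659.18, chromosome 2, 152780668 to 152831728, minus strand) encodes the pro-survival protein Bcl-xL and a shorter splice form, which gene totals do not separate. The gene lies 43.3 kb from Id1 on chromosome 2, with 3 annotated genes between them. Its libraries read 13.7, 12.2 and 12.8 CPM in WT, 14.2, 14.2 and 13.3 in Tet2KO, 11.2, 9.94 and 11.9 in Id1KO, and 12.2, 11.7 and 11.6 in dKO. Tet2KO lay above both genotypes with the Id1KO label without overlap, and WT lay above Id1KO. In dKO against Tet2KO the log2 fold change was -0.23 ± 0.082 (edgeR adjusted p = 0.0434). A change of the same size in Id1KO against WT, -0.23 ± 0.081, did not pass (adjusted p = 0.063), and the interaction was -0.00 with a 95% interval of -0.24 to 0.24. The call in dKO against Tet2KO was lost with DESeq2 (adjusted p = 0.144), without a count filter (0.0745) and without Tet2KO replicate 1 (0.115) or 2 (0.109) or dKO replicate 1 (0.0551), 2 (0.0894) or 3 (0.111). Without Id1KO replicate 3, the comparison of Id1KO with WT passed (adjusted p = 0.0447).

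The effectors Bax (ENSMUSG00000003873.11, chromosome 7, 45461697 to 45466898, minus strand) and Bak1 (ENSMUSG00000057789.14, chromosome 17, 27019810 to 27029009, minus strand) passed the test in no comparison by edgeR or DESeq2. Of their 12 values in edgeR, 1 had an unadjusted p under 0.05, that of Bax in Tet2KO against WT. The genotype means of Bak1 varied least, at 84.4 ± 0.28 CPM in WT, 85.1 ± 0.89 with Tet2KO, 84.5 ± 0.44 with Id1KO and 84.1 ± 5.9 with dKO. The dKO libraries of Bak1 were more spread, at 87.9, 77.3 and 87.1 CPM. Its 95% interval in Tet2KO against WT was -0.07 to 0.09 on the log2 scale, and its smallest edgeR adjusted p was 0.794. Bax was at 38.7, 37.9 and 39.1 CPM in WT, 38.5, 31.1 and 35.4 in Tet2KO, 38.7, 38.6 and 38.5 in Id1KO, and 37.1, 34.6 and 35.7 in dKO. The Tet2KO libraries of Bax were the most spread and overlapped with WT, whereas dKO lay below WT in every library. The log2 fold change of Bax was -0.14 ± 0.058 in Tet2KO against WT (adjusted p = 0.0693) and -0.11 ± 0.058 in dKO against WT (adjusted p = 0.22). In Tet2KO against WT it passed without Tet2KO replicate 1 (-0.21, adjusted p = 0.0103) and without a count filter (adjusted p = 0.0339). The exons of Bax share 192 bp with a gene model on the same strand, Gm45808, which held at most 8.21 counts in a library.

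Pmaip1 (ENSMUSG00000024521.8, chromosome 18, 66458533 to 66465565, plus strand) encodes Noxa, a p53-responsive BH3-only protein that binds Mcl1, and it showed the largest change of the family. Its level was 8.40, 9.33 and 9.35 CPM in WT, 4.41, 4.65 and 4.58 in Tet2KO, 6.97, 8.27 and 8.20 in Id1KO, and 9.06, 7.06 and 7.03 in dKO. These values rest on 162 to 181 counts per library in WT and 72 to 85 in Tet2KO. Tet2KO lay below the other 9 libraries, and dKO overlapped with both WT and Id1KO. In Tet2KO against WT, Pmaip1 fell by 0.99 ± 0.12 on the log2 scale (edgeR adjusted p = 2.11e-06), a decrease of 49.6%, which was larger in size than that of 97.6% of genes tested. In dKO against Tet2KO it was higher by 0.76 ± 0.12 (adjusted p = 0.000113). The Id1 label alone gave -0.21 against WT (adjusted p = 0.21), and dKO against Id1KO gave -0.02, with a 95% interval of -0.25 to 0.21. With the libraries summed per genotype, in a model without an interaction, the Tet2 label gave -0.49 (adjusted p = 0.352).

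The effect of the Id1 label on Pmaip1 differed with the Tet2 label, with an interaction of 0.97 ± 0.16 (edgeR adjusted p = 0.000435). In the interaction 2 of the 10 members passed, both in the positive direction, against 14.5% of all genes in either direction, 7.46% positive and 7.03% negative. Bid was the other. In dKO against WT, Pmaip1 stood at -0.23 (adjusted p = 0.157) and, of the alternatives run, passed only when dKO replicate 1, the highest of the dKO libraries, was left out (-0.35, adjusted p = 0.0346).

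Erythroid markers moved as Pmaip1 did when Tet2KO was set against WT or dKO against Tet2KO. Of 12 such markers, 11 were lower in Tet2KO than in WT, beside 16.2% of all genes. The median log2 fold change of the 12 was -0.79 against -0.003 for all genes tested. In dKO against Tet2KO 11 of the 12 were higher, beside 13.1% of all genes, with a median of 0.78. Their summed level was 1436 to 1493 CPM in WT, 878 to 891 with Tet2KO, 1621 to 1659 with Id1KO and 1443 to 1460 with dKO, and none was at 0. The part of erythroid cells in the Pmaip1 differences was not tested. Kit, which the sort selects on, was at 365 ± 11 CPM in Tet2KO and 338 ± 2.3 in WT.

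**Figure D3:**
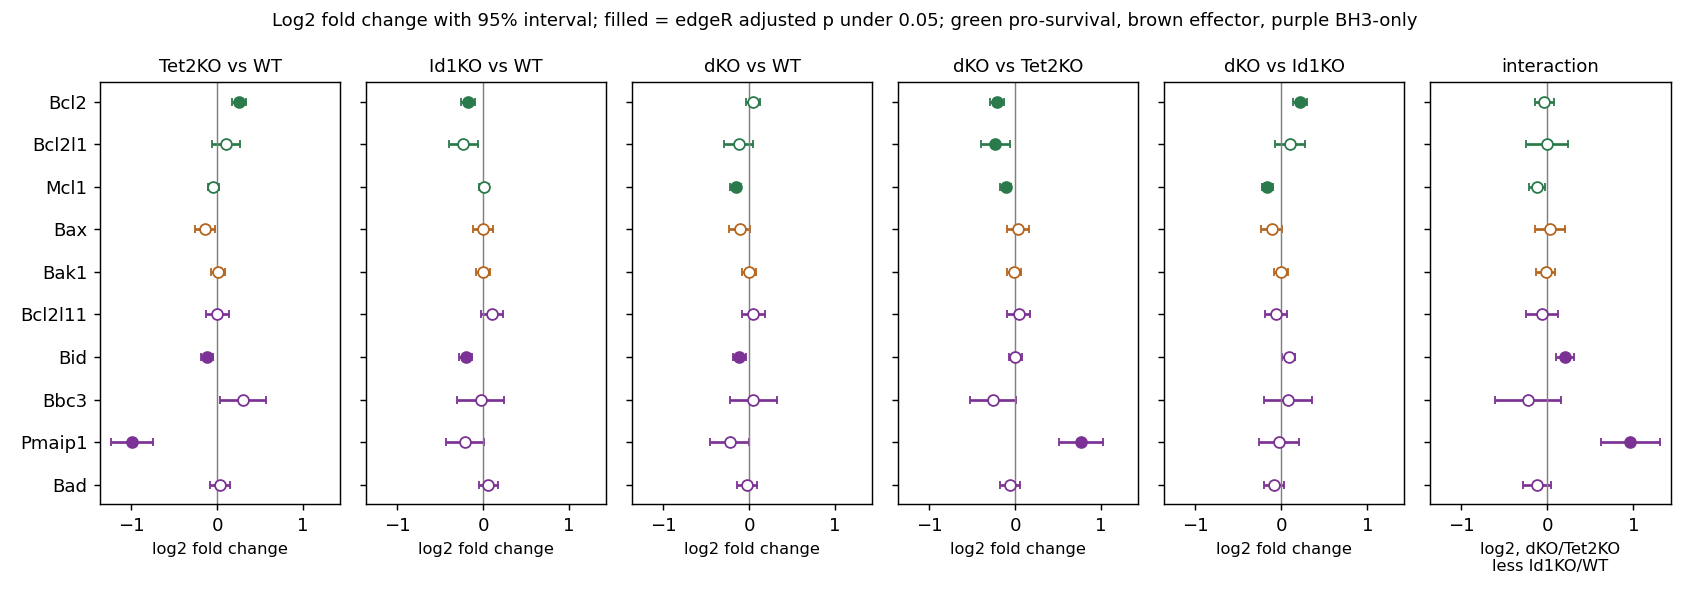
Log2 fold change of each member with its 95% interval in the 5 pairwise comparisons and in the interaction. Filled points passed edgeR's test. Pmaip1 stands apart at -0.99 in Tet2KO against WT, 0.76 in dKO against Tet2KO and 0.97 in the interaction, and every other point lies between -0.26 and 0.30.

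Bid (ENSMUSG00000004446.12, chromosome 6, 120891930 to 120916853, minus strand) encodes the protein that links death receptors to the mitochondrion after cleavage by caspase-8. It was lower than WT in all 3 other genotypes. WT libraries read 84.5, 79.8 and 84.1 CPM, Tet2KO 77.5, 75.2 and 76.4, Id1KO 74.4, 70.1 and 71.5, and dKO 78.6, 74.6 and 76.3. Each WT library lay above each library of the other genotypes, and Id1KO was lowest. The log2 fold change against WT was -0.20 ± 0.035 in Id1KO (edgeR adjusted p = 0.000568), -0.12 ± 0.035 in Tet2KO (adjusted p = 0.0157) and -0.11 ± 0.036 in dKO (adjusted p = 0.0289), comparisons that share the WT libraries. The interaction was 0.20 ± 0.051 (adjusted p = 0.0104), with dKO against Tet2KO at 0.00 and a 95% interval of -0.07 to 0.08.

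Only the Id1KO call of Bid and its interaction held under every alternative fit to separate libraries. The Tet2KO call was lost with DESeq2 (adjusted p = 0.0638) and without WT replicate 1 (0.0699) or 3 (0.0732) or Tet2KO replicate 2 (0.0756) or 3 (0.0526). The dKO call was lost with DESeq2 (adjusted p = 0.106), in a fit of WT and dKO alone (0.0545) and without WT replicate 1 (0.101) or 3 (0.111) or dKO replicate 2 (0.107) or 3 (0.0834). Exons of Bid also share 628 bp with Bcl2l13, which runs the other way, and whether strand was used in the counting was not given in the sources used here. Bcl2l13, a mitochondrial relative of the family, was at 98.0 CPM in WT, 91.0 with Tet2KO, 98.4 with Id1KO and 100.2 with dKO. It was lower in Tet2KO than in WT by a log2 fold change of -0.11 (adjusted p = 0.015), as Bid was, and stood at 0.01 in Id1KO against WT (adjusted p = 0.922), where Bid fell most.

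The remaining BH3-only members, Bbc3, Bcl2l11 and Bad, passed no comparison by edgeR or DESeq2, and 1 of their 18 values in edgeR had an unadjusted p under 0.05. Bbc3 (ENSMUSG00000002083.13, chromosome 7, 16308393 to 16318205, plus strand) encodes Puma, a p53-responsive protein that binds all pro-survival members. It was measured at 3.53, 4.43 and 4.38 CPM in WT, 5.39, 5.06 and 4.79 in Tet2KO, 3.95, 4.32 and 3.80 in Id1KO, and 3.80, 4.61 and 4.31 in dKO. Tet2KO lay above every other library. At 60 to 89 counts per library, its log2 fold change of 0.30 ± 0.13 in Tet2KO against WT had an edgeR adjusted p of 0.0723 and a 95% interval of 0.04 to 0.57. The fold changes of Bbc3 and Pmaip1, both known p53 targets, had opposite signs in Tet2KO against WT, and only that of Pmaip1 passed the test. A part of p53 in either difference was not tested.

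Bcl2l11 (ENSMUSG00000027381.16, chromosome 2, 128126038 to 128162547, plus strand) encodes Bim, which binds all pro-survival members and can activate the effectors. It was at 24.8 ± 0.88 CPM in WT, 24.9 ± 1.0 with Tet2KO, 26.7 ± 2.4 with Id1KO and 25.7 ± 0.74 with dKO, with overlap between all genotypes. Its largest log2 fold change was 0.11 in Id1KO against WT (edgeR adjusted p = 0.263), with a 95% interval of -0.02 to 0.24. Bad (ENSMUSG00000024959.14, chromosome 19, 6941861 to 6951899, plus strand) encodes a protein that growth factor signalling holds inactive by phosphorylation. It was at 21.2 ± 0.20, 21.7 ± 0.66, 22.1 ± 0.48 and 20.8 ± 1.1 CPM in WT, Tet2KO, Id1KO and dKO. The log2 fold changes of Bad lay between -0.09 and 0.06 in the pairwise comparisons. Its exons share 524 bp with Gpr137 on the opposite strand, and those of Bak1 share 437 and 177 bp with 2 gene models named Ggnbp1.

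Grouped by role, all 3 pro-survival members were lower in dKO than in Tet2KO by edgeR, beside 13.4% of all genes lower, and neither effector passed in any comparison. Of these calls, that of Bcl2l1 was lost with DESeq2 (adjusted p = 0.144) and in the other fits given above. That of Mcl1 was lost without Tet2KO replicate 3 or dKO replicate 1. Of the 5 BH3-only members, 2 were lower in Tet2KO than in WT, Bid and Pmaip1, against 16.2% of all genes lower. The Bid call was lost with DESeq2 (adjusted p = 0.0638) and in the other fits given above. The level of Bcl2 relative to Bax, per length, was 0.583 ± 0.0042 in WT, 0.773 ± 0.10 with Tet2KO, 0.516 ± 0.0036 with Id1KO and 0.649 ± 0.062 with dKO (SD, n = 3). In this ratio the Tet2KO libraries, from 0.666 to 0.872, overlapped with those of dKO, from 0.597 to 0.718. Mcl1 relative to Pmaip1 was 18.3 ± 0.87 in WT, 35.2 ± 0.68 with Tet2KO, 21.4 ± 2.4 with Id1KO and 19.6 ± 3.4 with dKO. In the second ratio Tet2KO lay above every other library, from 34.5 to 35.8 against at most 24.1. Bcl2 relative to Mcl1 was 0.236 ± 0.0065, 0.290 ± 0.0082, 0.208 ± 0.0055 and 0.271 ± 0.0077 in the same order, and no library overlapped between genotypes. These ratios are descriptions of transcript levels and were not tested.

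The genes most like the 3 members of widest range were sought by the root mean square difference over the 4 genotype means of log2 CPM, each centred on its own mean, among 9780 genes. For Pmaip1 they were Isg20 at 0.0498, Pvt1 at 0.0530 and St3gal5 at 0.0588. For Bcl2 they were Dennd1c at 0.00859, Nod1 at 0.0121 and Slc43a2 at 0.0128. For Bbc3 they were Naip5 at 0.00873, Sh3bp2 at 0.0105 and Hgf at 0.0114. With 4 points per gene, many genes can match a pattern closely.

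Genes that act before and after the family in apoptosis were examined from 9 lists, of which 49 of 55 genes in the table were tested. Bcl2l10 and Hrk were at 0 counts, Bcl2a1a, Bcl2a1c, Bcl2l15 and Bik were below the count minimum, and Bcl2l16 was not analysed here. In Tet2KO against WT 24 of the 49 passed, 13 higher and 11 lower, or 49% beside 32.8% of all genes. In dKO against Tet2KO 21 passed, 12 higher and 9 lower, or 42.9% beside 26.4%. Id1KO and dKO each differed from WT in 13 (26.5%, beside 15% and 19.2%), and dKO differed from Id1KO in 8 (16.3%, beside 19.3%). The lists were not tested as sets.

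**Figure D4:**
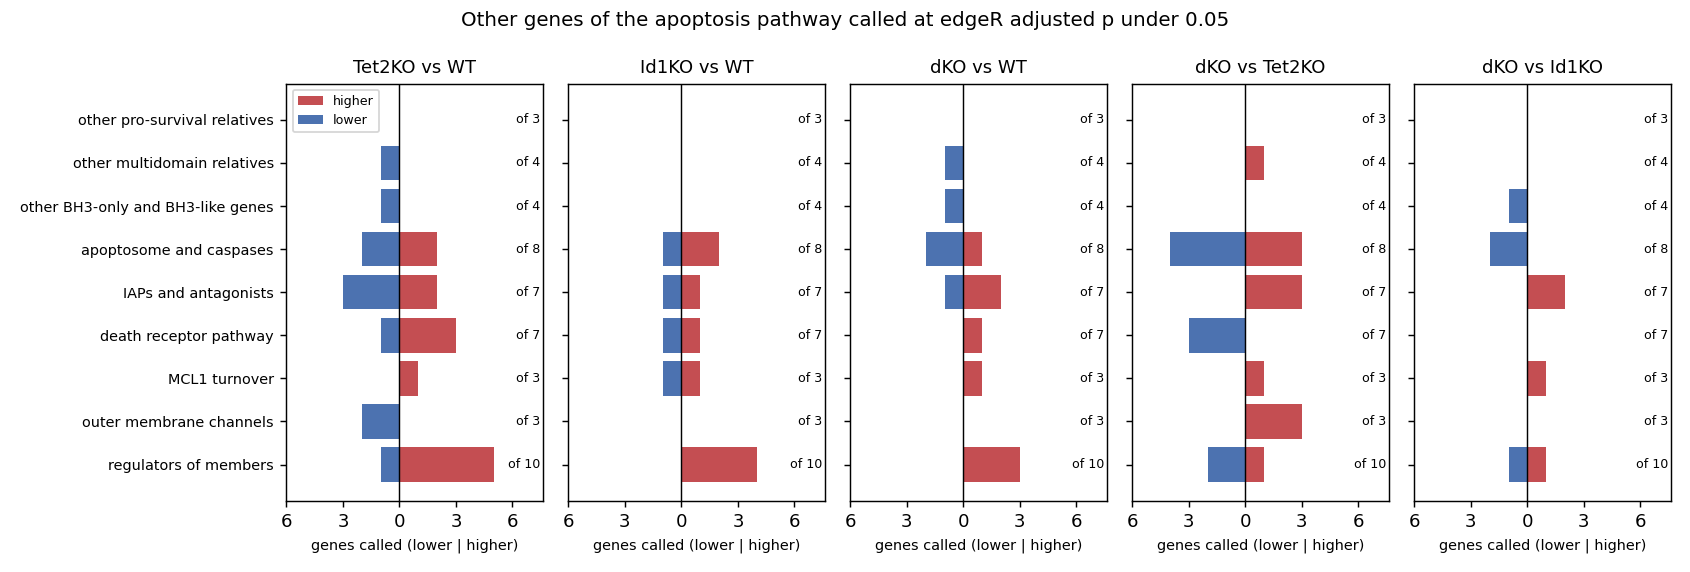
Number of genes of each pathway list that passed edgeR's test, lower to the left of 0 and higher to the right, in the 5 pairwise comparisons, with the number tested at the right edge. In dKO against Tet2KO, 7 of 8 apoptosome and caspase genes and 3 of 3 outer membrane channels passed, beside 26.4% of all genes.

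Among the other pro-survival genes, Bcl2l2, which encodes Bcl-w, had genotype means of 26.7 to 27.7 CPM, with a smallest edgeR adjusted p of 0.488. Bcl2a1a, Bcl2a1b and Bcl2a1d are 98.2% to 99.1% alike over 817 to 819 bp, Bcl2a1c matches the latter pair at 95.7% and 96.3% over 437 bp, and the counts of these copies are therefore uncertain. Of the 2 copies tested, Bcl2a1d had the larger log2 fold change, 2.02 in dKO against WT at 0.586 and 0.138 CPM (adjusted p = 0.0524). Among multidomain and BH3-like relatives, Bcl2l14 was lower in dKO than in WT (-0.68, adjusted p = 0.0156), as was the mitophagy receptor Bnip3l (-0.11, adjusted p = 0.0272). Becn1, an autophagy protein with a BH3-like stretch, was lower in Tet2KO than in WT (-0.10, adjusted p = 0.0275).

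Downstream of the mitochondrion, 2 genes of the apoptosome and caspase list were higher and 2 lower in Tet2KO than in WT, of 8 tested. Of all genes, 16.6% were higher and 16.2% lower in that comparison. Cycs, which encodes cytochrome c, had a log2 fold change of -0.32 in Tet2KO against WT (edgeR adjusted p = 3.69e-07) and 0.17 in dKO against Tet2KO (adjusted p = 0.000811). It shares 946 bp at 99.9% identity with Gm10053, which stood at -0.18 and 0.05 in these comparisons, so its counts are uncertain. Apaf1, the scaffold of the apoptosome, went the other way, at 0.21 (adjusted p = 9.71e-06) and -0.09 (adjusted p = 0.0206).

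Among the inhibitors of apoptosis and their antagonists, Htra2, a mitochondrial protease that cleaves these inhibitors, had -0.35 in Tet2KO against WT (edgeR adjusted p = 8.91e-07) and 0.22 in dKO against Tet2KO (adjusted p = 0.000406). Its exons share 753 bp with Aup1 on the opposite strand, which did not pass in either comparison. Birc6, a large ubiquitin ligase of the group, was higher in both Tet2KO-labelled genotypes, by 0.23 in Tet2KO against WT (adjusted p = 7.68e-07) and 0.29 in dKO against Id1KO (adjusted p = 7.1e-08). Birc5, a mitotic member of the group, was higher in dKO than in Tet2KO (0.24, adjusted p = 7.44e-05). In the death receptor list, 3 of 7 genes were higher in Tet2KO than in WT and lower in dKO than in Tet2KO: the receptor Tnfrsf1a (0.30 and -0.26), the kinase Ripk1 (0.28 and -0.13) and the caspase-8 inhibitor Cflar (0.30 and -0.23). The edgeR adjusted p of these 6 values was at most 0.00467. The adaptor Fadd was lower in Tet2KO than in WT (-0.24, adjusted p = 0.0233). Of all genes, 16.6% were higher and 16.2% lower in Tet2KO than in WT, and 13.4% were lower in dKO than in Tet2KO.

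The ubiquitin ligase Huwe1, which marks Mcl1 protein for degradation, was higher by 0.25 in Tet2KO against WT (edgeR adjusted p = 1.17e-06) and by 0.28 in dKO against Id1KO (adjusted p = 4.88e-07). Fbxw7, part of another ligase of Mcl1, was higher by 0.21 in Id1KO against WT (adjusted p = 0.0252) and by 0.19 in dKO against Tet2KO (adjusted p = 0.0299). All 3 outer membrane channels, Vdac1, Vdac2 and Vdac3, were higher in dKO than in Tet2KO, by 0.13, 0.10 and 0.11. Of all genes, 13.1% were higher in that comparison. Vdac2 and Vdac3 were lower in Tet2KO than in WT, by log2 fold changes of -0.13 and -0.14 (adjusted p = 0.00201 and 0.00108).

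Of 10 regulators of the family, 5 were higher and 1 lower in Tet2KO than in WT, beside 16.6% of all genes higher and 16.2% lower. Foxo3, a transcription factor known to act on BH3-only genes, was higher by 0.15 (edgeR adjusted p = 0.000414), and Stat3, known to act on pro-survival genes, by 0.19 (adjusted p = 3.49e-05). Stat3 was lower in dKO than in Tet2KO (-0.18, adjusted p = 0.000143), as were the 3 pro-survival members. In Id1KO against WT, however, Stat3 was higher (0.10, adjusted p = 0.0275) and Bcl2 lower (-0.17). A link between Stat3 and these members was not tested. Ddit3, a factor of the stress response of the endoplasmic reticulum, was higher in Id1KO than in WT (0.32, adjusted p = 0.0147) and lower in dKO than in Id1KO (-0.45, adjusted p = 0.00118). Trp53, the activator of Pmaip1 and Bbc3, was at 107, 115, 106 and 113 CPM in WT, Tet2KO, Id1KO and dKO, with 0.10 in Tet2KO against WT (adjusted p = 0.0422). Trp53 was named for this link after its values were seen, and the link was not tested.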

How the data were processed

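Donor Lin- ckit+ cells were profiled with a stranded total RNA kit that removes ribosomal RNA (labels' protocols). The authors deposited a table of expected counts per gene, not normalized, for 12 libraries and 55450 genes. The submitters' processing notes name STAR, RSEM and mm10 without versions. The annotation and the strand setting were not given in the sources used here, and all gene identifiers matched GENCODE M21 on GRCm38, the source of positions and exon lengths.

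Expected counts were rounded, filtered with filterByExpr (minimum count 10), scaled by TMM and fitted with edgeR's quasi-likelihood model, with 1 mean per genotype over all 12 libraries and 8 residual degrees of freedom. The 5 pairwise contrasts and the interaction, (dKO - Tet2KO) - (Id1KO - WT), were tested two-sided, with Benjamini-Hochberg adjustment across 14346 genes and a threshold of 0.05. The common biological coefficient of variation was 0.0305. The members, lists and tests were chosen with earlier results of these data known. Named were all members, Tet2, Id1, up to 3 called genes of smallest adjusted p per pathway list, and the 3 genes most like each of the 3 members of widest range. Of the genes this rule names, 1 is not reported here. Near-identical copies were sought with blast (from 95% identity, from 100 bp).

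Libraries of 1 genotype differed by 1.18 to 2.10 times the sampling noise in all 12 pairs, so none was merged, against 2.89 to 5.94 times in the 54 pairs between genotypes. Within genotypes, dKO replicate 2 stood farthest from its mates, at 2.10 and 1.95 times, against 1.24 between dKO replicates 1 and 3. The deviations of same-numbered libraries correlated only weakly, at -0.114 to 0.123 over 18 pairs, against -0.111 to 0.172 for other pairs between genotypes. The number was used as a block only as an alternative. Other alternatives were DESeq2, RLE scaling, TMM factors from genes other than mitochondrial and structural RNAs, no count filter, fits of the compared libraries alone, leaving out each library, and libraries summed per genotype. The scripts were tested on simulated data. The software was blast 2.17.0, Python 3.11.15 with matplotlib 3.10.9, and R 4.3.3 with DESeq2 1.42.0, limma 3.58.1 and edgeR 4.0.16.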

Additional observations from a re-analysis of the deposited data

Results flagged for a closer look

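A pair of members responded to the Id1 label differently with and without the Tet2 label, by a test of that difference. For Pmaip1 the interaction was 0.97 ± 0.16 (SE) on the log2 scale, with an edgeR adjusted p of 0.000435: the Id1 label gave -0.21 without the Tet2 label and 0.76 with it. All 3 dKO libraries lay above all 3 Tet2KO libraries, and all 3 Id1KO libraries lay below all 3 WT libraries. The nearest libraries of Id1KO and WT were at 8.27 and 8.40 CPM. That difference did not pass the test (edgeR adjusted p = 0.21), with a 95% interval of -0.43 to 0.02. For Bid the interaction was 0.20 ± 0.051, with an edgeR adjusted p of 0.0104: the Id1 label gave -0.20 without the Tet2 label and 0.00 with it.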

How the results depend on the processing

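Across the alternatives, 1120 fold changes of members were recomputed. Of these, 1081 stayed on their side of the threshold, 33 no longer passed and 6 newly passed. Most of the 1120 belonged to values that had not passed above, and the 33 came only from those that had. The sign differed from that reported in 47, all of values that had not passed. With the 3 libraries of each genotype summed and the labels' effects taken as additive, which leaves 1 residual degree of freedom, 0 members passed by edgeR in Tet2KO against WT, 0 in Id1KO against WT, 0 in dKO against WT, 0 in dKO against Tet2KO, and 0 for dKO against Id1KO. At an unadjusted p under 0.05 that fit gave 1, 1, 0, 1 and 1 members, and it called 238, 9, 15, 9 and 238 of all genes. It gives no interaction, and Pmaip1 stood there at -0.49 for the Tet2 label (adjusted p = 0.352). In the summed fit dKO against Tet2KO repeats the value of Id1KO against WT, and dKO against Id1KO repeats that of Tet2KO against WT. No second tool was run on the sums. On the separate libraries DESeq2 called 2, 2, 1, 3 and 2 members, and 2 in the interaction. In dKO against WT the count was 1 with DESeq2 and 1 with only the libraries compared, since Bid was lost. Leaving out each library gave 2 to 4 members in Tet2KO against WT, 2 to 3 in Id1KO against WT, 1 to 3 in dKO against WT, 2 to 4 in dKO against Tet2KO, 2 to 2 in dKO against Id1KO and 2 to 3 in the interaction. In dKO against Tet2KO the count of 2 came without dKO replicate 1. In dKO against WT the count was 1 without WT replicate 1 or 3 or dKO replicate 2 or 3, and 3 without dKO replicate 1. With a replicate block, the counts were 3, 2, 2, 4 and 2 and, for the interaction, 2, as without it. By mean correlation, 7 of 12 libraries were closest to those of their own number in other genotypes, which does not settle whether the numbers pair the libraries. A fit of only the libraries compared gives no separate value for the interaction, which uses all 12. Pmaip1 and Bbc3 rest on the fewest counts.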
